A study of Ovis aries with 6 samples.

Results

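The Krüppel-like factors (KLFs) are transcription factors that bind GC-rich and CACCC-type DNA through zinc fingers at the C-terminal end of the protein. The family is usually split by its partners into members that mainly activate transcription, members that bind the repressor Sin3, and members that bind the repressor CtBP. In skeletal muscle the family is known for genes that respond to glucocorticoids and fasting, such as KLF15 and KLF9, and for genes induced quickly by growth factors or stress, such as KLF4, KLF6 and KLF10. The 10 members described here were KLF2, KLF3, KLF4, KLF5, KLF6, KLF9, KLF10, KLF11, KLF13 and KLF15, taken by gene name from a table of 23144 genes. Of these, 9 had a row under their own symbol. The other one, KLF2, was read from the row LOC101118186, whose number is the gene ID that RefSeq pairs with KLF2. All 10 members passed the filter on low counts, as did 12506 genes in all.

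The study compared the longissimus muscle, the long muscle of the back, of 2 sheep breeds by poly(A) RNA-seq on an Ion Proton instrument. Qianhua Mutton Merino (QHMM) is a meat and wool breed, and Small Tail Han (STH) is a traditional local breed. Each breed gave 3 libraries, each from a different female aged 1 year, and all animals were kept in the same environment without any treatment. The study's methods state that animals were fasted before they were weighed for slaughter.

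The libraries held between 10982191 and 14334544 reads counted on genes. The skeletal actin gene ACTA1, the most abundant muscle fibre marker, held 547523 to 1562580 normalized counts per library, and erythroid genes were close to 0. QHMM replicate 3 stood apart in genes that are induced within minutes of a stimulus. The summed normalized count of 19 such immediate-early genes was 2584 in QHMM replicate 3, against 36507 to 101451 in the other 5 libraries, and this library was the lowest for 17 of the 19. It was the lowest library for 16.8% of all genes tested. For KLF members whose value turns on this library, the value without it is given beside the result.

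Between the breeds, 2 of the 10 KLF members were called, KLF9 and KLF15, and both were up-regulated in STH vs. QHMM. A call was an FDR below 0.05, adjusted over all genes tested, with a fold change above 1.5 in either direction, by edgeR's quasi-likelihood test. Over all genes tested 3.45% were called in either direction and 1.62% were called higher in STH. The log2 fold change was above 0 in 9 members and below 0 in KLF13. Its median over the 10 members was 0.77, against 0.023 over all genes. In 5 members (KLF6, KLF9, KLF10, KLF11 and KLF15) every STH library lay above every QHMM library, a pattern that 13.0% of all genes tested showed. Without QHMM replicates 1, 2 and 3 in turn, the number of members called was 0, 1 and 0. The share of all genes tested that were called was then 1.03%, 1.61% and 1.17%. Without STH replicates 1, 2 and 3 in turn, the number of members called was 3, 1 and 2. The share of all genes tested was then 4.21%, 1.42% and 2.56%.

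**Figure D1:**
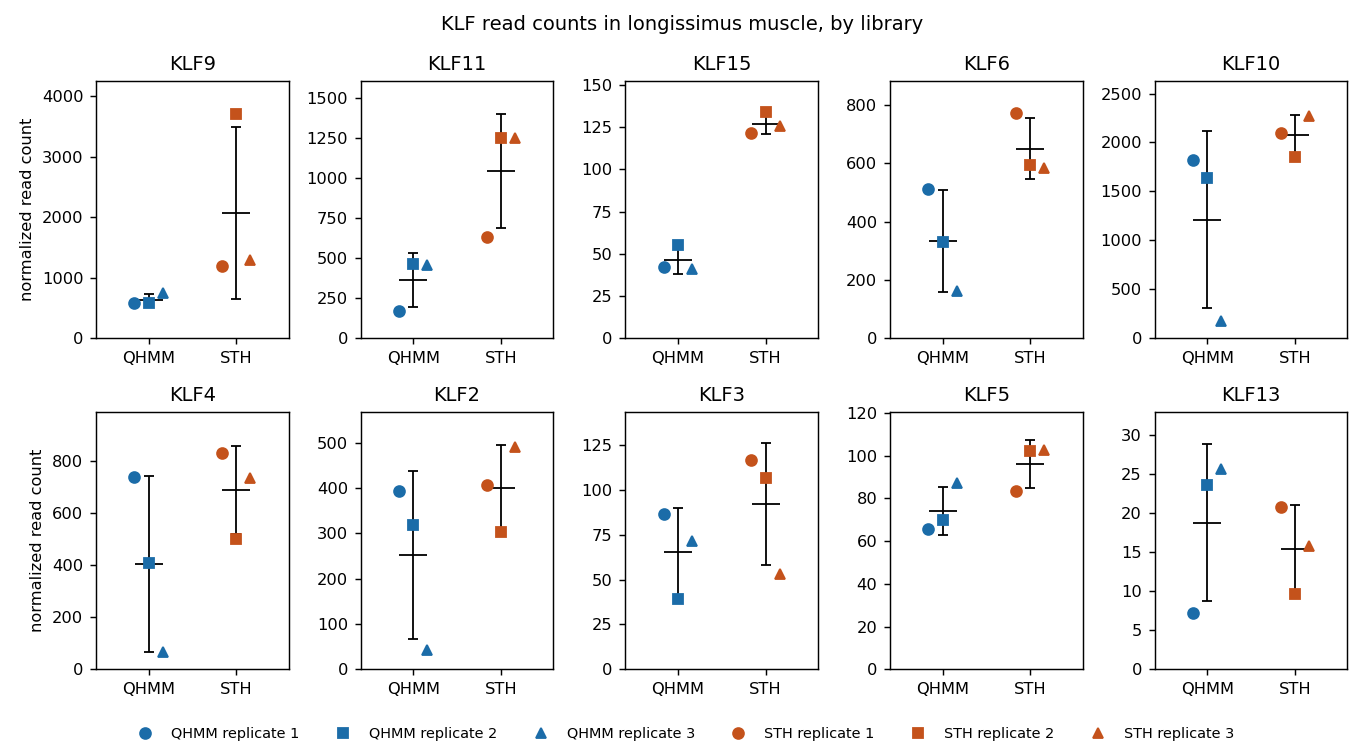
Normalized read count of each KLF member (y axis, linear, each panel on its own scale from 0) in the 3 QHMM and 3 STH libraries, with the mean and SD of each breed in black. KLF15 shows 2 tight groups, KLF9 has 1 high STH library at 3708, and KLF10, KLF4 and KLF2 have 1 low QHMM library at 177, 65.5 and 43.0.

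KLF15 is a zinc finger factor induced by glucocorticoids that is known to switch on genes of amino acid breakdown and lipid use in muscle. Its normalized read count, the count scaled to a common library size, was 42.3, 55.5 and 41.0 in QHMM replicates 1 to 3. In STH replicates 1 to 3 the normalized count of KLF15 was 122, 134 and 125. The lowest STH library lay 2.19-fold above the highest QHMM library. The mean was 46.3 ± 8.02 (SD, n = 3) in QHMM and 127 ± 6.17 (SD, n = 3) in STH. On the log2 scale STH was higher by 1.46 ± 0.26 (SE), or 2.74-fold, with an FDR of 0.0182 by edgeR. Among all genes KLF15 stood 120th by p-value, while its size was not unusual among the larger changes, since 1.70% of genes tested had a larger log2 fold change. The spread of KLF15 within STH was small, with an SD of 0.070 on the log2 scale, and 96.6% of genes tested had a larger one. KLF15 had 111 to 146 reads in the STH libraries, for which the SD of counting alone is 8.28% to 9.49% of the count. The FDR of KLF15 rose to 0.0728 without QHMM replicate 1 and to 0.0701 without QHMM replicate 3, with log2 fold changes of 1.37 and 1.38.

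KLF9 is a Sin3-binding member whose transcription is raised by glucocorticoids and thyroid hormone. It held 593, 584 and 742 normalized counts in the QHMM libraries and 1199, 3708 and 1290 in the STH libraries. The groups did not overlap, but STH replicate 2 was 2.98-fold above the mean of the other 2 STH libraries. The mean was 640 ± 89.0 (SD, n = 3) in QHMM and 2066 ± 1423 (SD, n = 3) in STH. KLF9 thus had a log2 fold change of 1.69 ± 0.40 (SE), or 3.23-fold, with an FDR of 0.0494 by edgeR, just inside the threshold. Without STH replicate 2 the log2 fold change of KLF9 was 0.94 ± 0.23 (SE) and its FDR was 0.0805. The FDR of KLF9 was also above the threshold without QHMM replicate 1 (0.145), QHMM replicate 2 (0.149) and QHMM replicate 3 (0.113), with log2 fold changes of 1.62, 1.63 and 1.81. KLF9 remained called without STH replicate 1 (FDR 0.0230) and without STH replicate 3 (FDR 0.0386) by edgeR, so its call held in 2 of the 6 omissions.

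KLF11, another Sin3-binding member, is induced early by TGF-beta and regulates genes of glucose and lipid handling. Its normalized count was 172, 465 and 457 in QHMM and 633, 1248 and 1246 in STH. Each breed had 1 library well below the other 2, replicate 1 in both, and the groups did not overlap. The mean was 365 ± 167 (SD, n = 3) in QHMM and 1043 ± 354 (SD, n = 3) in STH. Its log2 fold change was 1.52 ± 0.39 (SE), or 2.86-fold, larger than that of KLF15, but the FDR of 0.0603 by edgeR missed the threshold. DESeq2, which called 956 of all genes against 432 by edgeR, gave KLF11 an adjusted p of 0.00268. Without STH replicate 1 KLF11 passed the edgeR test, with a log2 fold change of 1.76 and an FDR of 0.0289. KLF11 was called in only this 1 of the 6 omissions, and its FDR by edgeR rose to 0.161 without STH replicate 2.

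**Figure D2:**
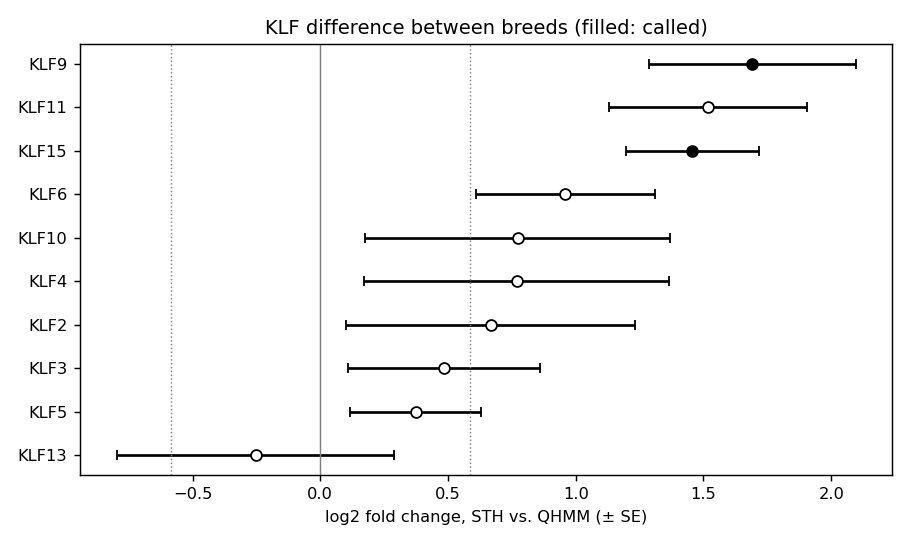
Log2 fold change of STH vs. QHMM (x axis) for each KLF member, with bars of 1 SE. Filled points are the 2 called members and dotted lines mark the minimum fold change of 1.5. KLF9, KLF11 and KLF15 lie between 1.46 and 1.69, and KLF13 is the only member below 0.

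By median level per gene length, though not by read count, KLF6, KLF10, KLF4 and KLF2 were the 4 most abundant members. None of these 4 passed the test. Their SE was between 0.35 and 0.60 on the log2 scale, and QHMM replicate 3 was the lowest library for each. KLF6 is a widely expressed activator that is induced early after injury. Its normalized count was 511, 329 and 163 in QHMM and 772, 596 and 583 in STH. The groups did not overlap, the log2 fold change was 0.96 ± 0.35 (SE), and the FDR by edgeR was 0.167. Without QHMM replicate 3 the log2 fold change of KLF6 was 0.63.

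KLF10, first described as a gene induced early by TGF-beta, was the member with the highest median level. It held 1822, 1641 and 177 normalized counts in QHMM and 2095, 1852 and 2271 in STH. Every STH library lay above every QHMM library, although STH replicate 2 was only just above QHMM replicate 1. For KLF10 the log2 fold change was 0.77 ± 0.60 (SE) with an FDR of 0.529 by edgeR. It was 0.26 without QHMM replicate 3 and 1.17 without QHMM replicate 1.

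KLF4 is a factor of vessel walls, epithelia and stem cells that cooperates with KLF2 in endothelium. Its normalized count was 738, 408 and 65.5 in QHMM and 832, 502 and 734 in STH. The log2 fold change of KLF4 was 0.77 ± 0.60 (SE) with an FDR of 0.530 by edgeR. It was 0.27 without QHMM replicate 3 and 1.52 without QHMM replicate 1. For KLF4 the choice of QHMM animals thus moved the estimate more than the choice of STH animals did, whose omission gave 0.60 to 0.94.

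KLF2 is the flow-responsive factor of endothelial cells. Its normalized count was 394, 319 and 43.0 in QHMM and 406, 304 and 492 in STH. QHMM replicates 1 and 2 lay within the STH range, and QHMM replicate 3 lay far below it. The log2 fold change of KLF2 was 0.67 ± 0.56 (SE) with an FDR of 0.570 by edgeR. It was 0.17 without QHMM replicate 3 and 1.13 without QHMM replicate 1.

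The mean of QHMM replicates 1 and 2 was 9.77-fold above QHMM replicate 3 for KLF10, 8.75-fold for KLF4, 8.29-fold for KLF2 and 2.58-fold for KLF6. The same ratio was 0.79 for KLF9, 0.70 for KLF11 and 1.19 for KLF15. The low library was therefore low in only some members of the family. On the log2 scale the SD among QHMM animals was 1.90 for KLF10, 1.82 for KLF4 and 1.76 for KLF2, against a median of 0.30 over all genes tested, and 0.592%, 0.704% and 0.856% of genes had a larger one. Among STH animals the SD of these members was 0.15, 0.38 and 0.35, against a median of 0.34. The immediate-early genes were low in the same library, and their part in these results was not tested.

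KLF3, KLF5 and KLF13 were the least abundant members by median level per gene length, and their groups overlapped. KLF3 is the CtBP-binding repressor of the set and is known to work with FHL3 in muscle. It held 86.4, 39.0 and 71.7 normalized counts in QHMM and 117, 107 and 53.1 in STH, and the log2 fold change was 0.48 ± 0.38 (SE) with an FDR of 0.531 by edgeR. Each breed had 1 library below its other 2, QHMM replicate 2 and STH replicate 3. The log2 fold change of KLF3 was 0.23 without QHMM replicate 2, 0.26 without STH replicate 1 and 0.76 without STH replicate 3.

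KLF5 is an activator known for its part in smooth muscle and adipocyte differentiation. Its normalized count was 65.7, 69.7 and 87.0 in QHMM and 83.2, 102 and 103 in STH. KLF5 varied least of the members between its highest and lowest library, by 1.56-fold. The groups of KLF5 overlapped through QHMM replicate 3 and STH replicate 1. Its log2 fold change was 0.37 ± 0.26 (SE) with an FDR of 0.475 by edgeR.

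KLF13 is a Sin3-binding member known from T cells and heart. It held 7.20, 23.6 and 25.6 normalized counts in QHMM and 20.8, 9.70 and 15.8 in STH. The log2 fold change of KLF13 was -0.25 ± 0.54 (SE) with an FDR of 0.848 by edgeR, and without QHMM replicate 3 it was 0.047. The depth behind KLF13 was 8 to 25 reads per library. The exact Poisson 95% interval of the lowest count, 8 reads in QHMM replicate 1, was 3.45 to 15.8 reads. That interval covers counting error only.

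Levels were compared between members per length, as the deposited RPKM (reads scaled by gene length and by library total), without the TMM scaling used for the normalized counts. By the median over the 6 libraries the order was KLF10 at 51.7 RPKM, KLF4 at 45.7, KLF6 at 39.6, KLF2 at 33.2, KLF9 at 13.8, KLF11 at 11.5, KLF15 at 5.37, KLF3 at 3.54, KLF5 at 2.32 and KLF13 at 2.01. The ranges of all 9 pairs of neighbours in this order overlapped. Within libraries, KLF11 exceeded KLF15 in 6 of 6, while KLF10 exceeded KLF4 in 3 of 6 and KLF5 exceeded KLF13 in 3 of 6. KLF10 was above 91.1% of the genes tested by its median RPKM, KLF15 was above 51.8% and KLF13 was above 27.2%. The gene length implied by the RPKM was 5188 bases for KLF9, 4078 for KLF11 and 2800 for KLF10. It was 989 bases for KLF4, 981 for KLF6, 847 for KLF2 and 641 for KLF13. The order in reads and the order per length therefore differed. The order per length and the shares of summed RPKM rest on these lengths, and whether each covers the whole transcript was not tested.

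**Figure D3:**
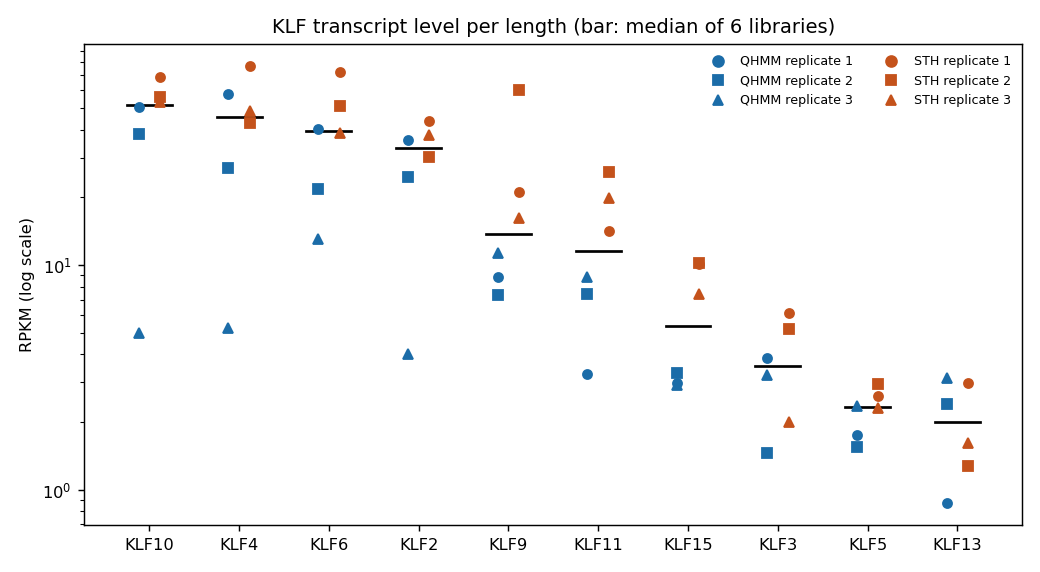
RPKM of each KLF member in each library (y axis, log scale), ordered by the median of the 6 libraries, which is drawn as a bar. The medians fall from 51.7 for KLF10 to 2.01 for KLF13, and QHMM replicate 3 lies far below the other libraries for KLF10, KLF4 and KLF2.

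The summed RPKM of the 10 members was 206, 135 and 59.1 in QHMM replicates 1 to 3 and 319, 286 and 228 in STH replicates 1 to 3. Every STH library lay above every QHMM library. The leading member differed between animals. It was KLF4 in QHMM replicate 1 and STH replicate 1, KLF10 in QHMM replicate 2 and STH replicate 3, KLF6 in QHMM replicate 3 and KLF9 in STH replicate 2. KLF2, KLF4, KLF6 and KLF10 together made up 46.2% of the summed RPKM in QHMM replicate 3 and 63.0% to 89.5% in the other 5 libraries. KLF9 alone made up 21.1% in STH replicate 2 and 19.1% in QHMM replicate 3, but 4.29% to 7.13% in the other 4 libraries. In QHMM replicate 3 the KLF9 level itself, at 11.3 RPKM, was below all 3 STH libraries, and the sum of the members was low.

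The members were also compared by the shape of their profiles over the 6 libraries. The measure was the root mean square difference of log2 normalized counts after each gene was centred on its own mean, so that 0 means identical shapes. Over the 45 pairs of members the median difference was 1.03. The 3 most similar pairs were KLF2 with KLF10 at 0.18, KLF2 with KLF4 at 0.22 and KLF4 with KLF10 at 0.27, and all 3 members share the low QHMM replicate 3. KLF15 lay at 0.53 from KLF6, 0.53 from KLF11 and 0.54 from KLF9. KLF9 and KLF11, the 2 members with the largest log2 fold changes, were 0.62 apart. The most different pair was KLF10 with KLF13, at 1.70. KLF2 and KLF4 are both counted as activators, while KLF10 binds Sin3.

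**Figure D4:**
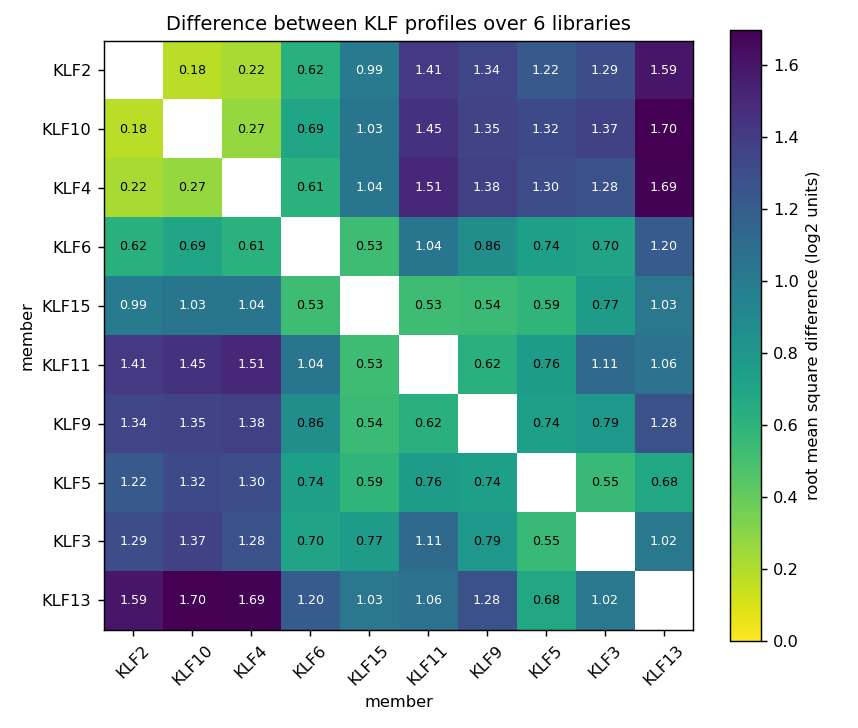
Root mean square difference (log2 units, color and printed values) between the centred profiles of each pair of KLF members over the 6 libraries. KLF2, KLF10 and KLF4 form a block of 0.18 to 0.27, and KLF13 is 1.59 to 1.70 away from all 3.

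Among all tested genes with a mean of at least 20 normalized counts, the 3 profiles most like KLF9 were those of JMY at 0.15, CHD7 at 0.18 and WDR43 at 0.18. Each of these also had its highest count in STH replicate 2, and CHD7, a chromatin remodeler, was called with a log2 fold change of 1.68 and an FDR of 0.0343 by edgeR. The 3 profiles most like KLF15 were LOC101123010 at 0.081, MIF4GD at 0.13 and IPO4 at 0.17, and all 3 were called with log2 fold changes of 1.38 to 1.47. Because the closest genes were picked for likeness over the same libraries, such shared features follow largely from the choice and are no separate support. For KLF2, KLF4 and KLF10, named here after their values were seen, the list of the 3 closest genes held ADAMTS1, a secreted protease, and IER2, an immediate-early gene, in each case. The phosphatase gene DUSP1 was the closest gene to KLF10, at 0.12, and held 8187, 9139 and 854 normalized counts in QHMM and 9257, 8095 and 10556 in STH.

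None of the tested other genes of the family and of the related SP factors was called. Of 17 such genes 12 had a row and 6 passed the low-count filter, and 0 of the 6 were called by edgeR, with 1 of them at an unadjusted p below 0.05, against 19.2% of all genes tested. The median log2 fold change of the 6 was 0.18. SP1, a GC-box factor present in most cells, held 662, 715 and 527 normalized counts in QHMM and 882, 1166 and 906 in STH. Its groups did not overlap, and its log2 fold change was 0.63 ± 0.22 (SE) with an FDR of 0.147 by edgeR. The log2 fold change was 0.11 for KLF7, -0.14 for KLF12, 0.25 for SP2, 0.27 for SP3 and 0.0056 for SP4. KLF8 had at most 4 reads in a library and KLF1 and SP5 had at most 1, while KLF17, SP7 and SP9 were listed at 0 in all 6 libraries. KLF14, KLF16, KLF18, SP6 and SP8 were not analysed here.

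The counts for the partners and inducers of KLFs are read against the 3.45% of all genes tested that were called and the 19.2% with an unadjusted p below 0.05, and with 7 to 16 genes a list a count of 0 calls is near that background. Of 15 cofactor and turnover genes through which KLFs are known to act on chromatin, 0 were called by edgeR and 1 had an unadjusted p below 0.05, and the median log2 fold change was -0.12. Of 7 genes of the ERK5-MEF2 cascade, which is known to induce KLF2 and KLF4 in endothelium, 0 were called by edgeR, 0 had an unadjusted p below 0.05, and the median was -0.38. KLF10 and KLF11 are known targets of TGF-beta, and of 16 genes of the TGF-beta response 0 were called by edgeR, 2 had an unadjusted p below 0.05, and the median was -0.34. The immediate-early genes had a median log2 fold change of 0.24 with all libraries, -0.29 without QHMM replicate 3 and 1.12 without QHMM replicate 1. Of these 19 genes 1 was called, FOSL2, a partner of JUN proteins, at 2.57 with an FDR of 0.0174 by edgeR, and its call was lost without QHMM replicate 2.

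Of 21 genes of the glucocorticoid response, the class to which KLF9 and KLF15 belong, 13 were called higher in STH by edgeR and 0 were called lower, against 1.62% called higher over all genes tested. Their median log2 fold change was 2.18, and 20 of the 21 were above 0. Every STH library lay above every QHMM library in 17 of them, against 13.0% of all genes tested. The list was chosen with earlier results of these data known, so its counts are description and not independent support. The smallest FDR of the list, 0.00231 by edgeR, was that of SESN1, a sestrin that restrains mTOR signaling, which held 502, 591 and 796 normalized counts in QHMM and 3877, 6772 and 4452 in STH. FKBP5, a chaperone of the glucocorticoid receptor, was 4.45 higher on the log2 scale (FDR 0.00345 by edgeR), FOXO1, a transcription factor active in fasting, was 3.08 higher (0.0045), and TRIM63, a ubiquitin ligase of muscle atrophy, was 3.52 higher (0.00489). TRIM63 was highest in STH replicate 2, at 61507 normalized counts, as KLF9 was. STH replicate 2 was the highest library for 9 of the 21 genes, against 22.8% of all genes tested, and QHMM replicate 3 was the lowest for 12 of the 21, against 16.8%; their part in this result was not tested. The number called higher ranged from 8 to 13 with each library left out, with 8 without QHMM replicate 2 and 9 without QHMM replicate 3. The receptor gene itself, NR3C1, named after its values were seen, had a log2 fold change of -0.24 with an FDR of 0.666 by edgeR.

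KLF15 is known to drive genes of branched-chain amino acid and proline breakdown in muscle. Of 18 such genes listed, PRODH (row LOC101107260) and GPT were at 0 in all 6 libraries and were not tested. Of 16 such genes tested, 0 were called higher in STH by edgeR, near the 1.62% called higher over all genes tested, 5 had an unadjusted p below 0.05, and the log2 fold change was below 0 in all 16, with a median of -0.36. One gene was called lower, PPM1K, the phosphatase that activates the branched-chain keto acid dehydrogenase, at -2.89 with an FDR of 0.0225 by edgeR, and its call was lost without QHMM replicate 1, without QHMM replicate 3 and without STH replicate 3. Of 11 genes of muscle fatty acid handling, 0 were called by edgeR and 3 had an unadjusted p below 0.05, with a median of 0.21, beside 3.45% and 19.2% over all genes tested. Among 14 tested circadian clock genes, several of which oscillate together with KLF9, KLF10 and KLF15, 1 was called by edgeR. The share called over all genes tested was 3.45%. An unadjusted p below 0.05 was found in 8 of the 14, against 19.2% of all genes tested. The groups did not overlap in 9, of which 3 were higher and 6 were lower in STH. Every STH library was higher in 13.0% of all genes tested. The share with every STH library lower was not computed, so the 6 lower genes have no background here. PER1, another clock gene, was counted in the glucocorticoid list and not in this one. Named after its values were seen, PER1 was 1.33 higher on the log2 scale (FDR 0.0595 by edgeR), with every STH library above every QHMM library. The called gene was the clock repressor CRY2, whose log2 fold change was -1.09 with an FDR of 0.0488 by edgeR, and its call held in 1 of the 6 omissions, that of STH replicate 1.

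The muscle samples are mixtures, so fewer cells of a type and less RNA per cell cannot be told apart. The most abundant gene of each marker list is named by mean normalized count, without correction for gene length. KLF2 and KLF4 are best known from endothelial cells. Of 10 endothelial markers tested, 0 were called by edgeR and 1 had an unadjusted p below 0.05, beside 3.45% and 19.2% over all genes tested. The summed normalized count of these markers was 10262 to 11831 in QHMM and 10928 to 12948 in STH, with VWF the most abundant. In QHMM replicate 3, where KLF2 and KLF4 were low, the endothelial sum was 10262. The smooth muscle and pericyte markers, 8 in all with ACTA2 the most abundant, summed to 4135 to 8881 in QHMM and 5078 to 8246 in STH, and were lowest in QHMM replicate 3.

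Among the markers of other cell types, some were called lower in STH. Of all 12506 genes tested, 229 were called lower in STH, 3.45% were called in either direction and 19.2% had an unadjusted p below 0.05. Of 6 adipocyte markers tested 4 were called lower in STH (ADIPOQ, PLIN1, LEP and CIDEC), with log2 fold changes of -2.13, -2.37, -4.21 and -2.44, and the list summed to 3194 to 6448 normalized counts in QHMM and 2071 to 2379 in STH, with PLIN4 the most abundant. With each library left out, 1 to 4 of the 6 were called, and the lowest number was without STH replicate 2. The 7 fibroblast markers summed to 30257 to 51060 in QHMM and 11184 to 23950 in STH. The collagen gene COL3A1 (row LOC100101231) was the most abundant. Of the 7, 0 were called by edgeR and 4 had an unadjusted p below 0.05 (19.2% over all genes tested). The log2 fold change was -1.30, -1.38 and -1.22 for the collagen genes COL1A1, COL1A2 and COL3A1. It was -0.46 for PDGFRA, -0.45 for DCN, -0.89 for LUM and 0.68 for DPT, and in these the groups overlapped. Of 10 muscle fibre markers 2 were called lower in STH, the slow troponin gene TNNT1 at -1.37 and the myosin gene OMYHCS at -1.34. Both calls were lost without each of the 3 QHMM libraries and without STH replicate 2. Of 7 leukocyte markers, with CSF1R the most abundant, 0 were called by edgeR and 0 had an unadjusted p below 0.05. Of 3 epithelial markers tested, with KRT8 the most abundant, 1 was called lower, CDH1 at -2.12, a call that held only without STH replicate 1 among the 6 omissions. Of the erythroid markers none passed the filter, with AHSP the most abundant at up to 19.1 normalized counts. The part of these cell types in the KLF differences was not tested.

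**Figure D5:**
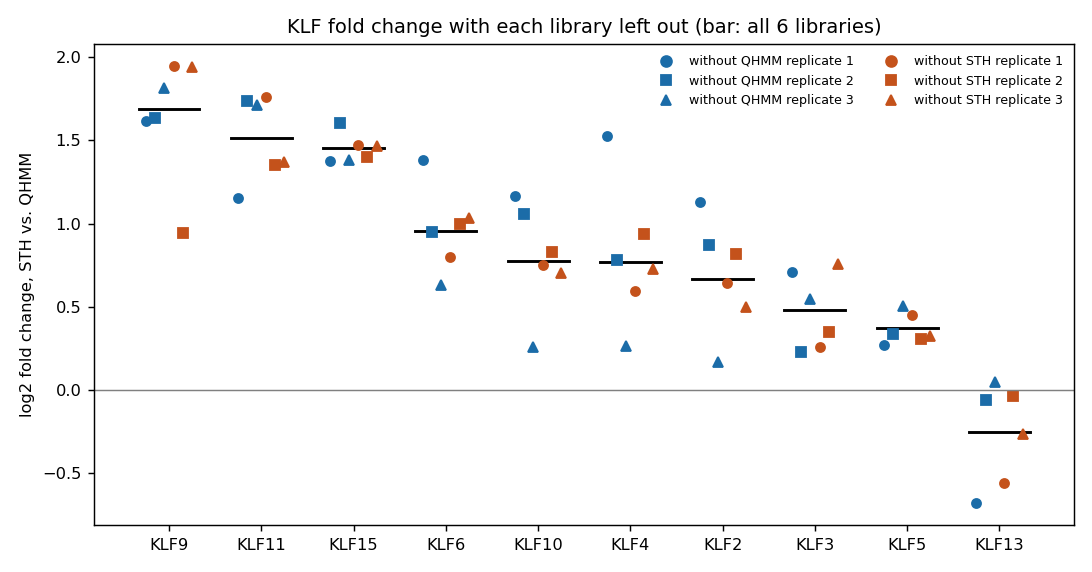
Log2 fold change of STH vs. QHMM for each KLF member (y axis) when the library given by color and symbol was left out. The bar is the value with all 6 libraries. KLF15 stays between 1.37 and 1.61, KLF9 drops to 0.94 without STH replicate 2, and KLF10, KLF4 and KLF2 drop to 0.26, 0.27 and 0.17 without QHMM replicate 3.

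The members thus differed in what their estimates rested on. KLF15 ranged from 1.37 to 1.61 on the log2 scale over the 6 omissions, KLF11 from 1.16 to 1.76 and KLF5 from 0.27 to 0.51. KLF9 ranged from 0.94 to 1.95 and KLF4 from 0.27 to 1.52. KLF13 was the only member whose log2 fold change crossed 0.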

How the data were processed

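Reads from 6 libraries were filtered and mapped by the authors to the sheep genome Oar 3.1, and uniquely mapped reads were assigned to genes. The aligner and the counter are not given in the sources used here. The authors deposited raw counts per gene and RPKM values. The deposited RPKM were equal to the counts over the length of the gene and over the sum of counts in that library, to a relative difference of 5.73e-06, so no further scaling was found in them. Groups were taken from the breed labels, and each library was 1 animal. RefSeq's gene table (ARS-UI_Ramb, version 3.0) was used for names only, to match genes listed as LOC numbers.

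Counts were filtered by filterByExpr, scaled by TMM and tested for breed with the quasi-likelihood test of edgeR 4.0.16 in R 4.3.3. FDR was computed over 12506 genes. A gene was called where FDR was under 0.05 and log2 fold change exceeded 0.585 in size, the cutoffs given in the study's methods, which used a different program, EBSeq. The SE was derived from the log2 fold change and the F statistic. Normalized counts are counts scaled to a library of 13044142 reads. DESeq2 1.42.0 and limma 3.58.1 were used for alternatives. The scripts were tested on simulated data.

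The members and the gene lists were chosen with earlier results of these data known. Text names all members, the other KLF and SP genes, up to 4 called genes per list with the smallest FDR, the most abundant gene of each marker list, and the 3 genes with the profiles closest to each called member. Same-numbered replicates come from different animals and did not deviate together (correlations of 0.216, -0.0309 and -0.121), so no block was used. No library was a duplicate of another of the same breed, and pairs between breeds were not checked.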

Additional observations from a re-analysis of the deposited data

How the results depend on the processing

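Over 12 settings with all 6 libraries and 6 with 1 library left out, KLF9 was called in 4 and 2, KLF15 in 10 and 4, and KLF11 in 5 and 1. Among the 12, the setting without a minimum fold change used the main fit itself and gave the same calls. Of 179 member values, 156 kept their direction and their side of the threshold, 16 lost a call, 6 gained one and 1 reversed. The one that reversed was KLF13, at -0.25 with all libraries and 0.047 without QHMM replicate 3 (range -0.68 to 0.047 with each library left out). KLF2, KLF3, KLF4, KLF5, KLF6, KLF10 and KLF13 were called in no setting, and most of the 156 values are theirs. All lost and gained calls were those of KLF9, KLF11 and KLF15. The number of members called, and of members called higher in STH, was 3 with DESeq2 and 3 without a filter on low counts. It was 1 with upper-quartile normalization, 1 with robust dispersions and 0 with TREAT (a test against the minimum fold change itself). With limma-trend it was 0 on log2(RPKM + 1) without a filter and 1 on log2(RPKM / TMM + 1), a setting chosen after seeing the data. With each library left out it was 0 to 3. The number of all genes called was 956 with DESeq2, 806 without a filter on low counts, 105 with TREAT and 78 with limma-trend without a filter, and 131 to 535 with each library left out. The 23 calls among all listed genes became 40, 38, 11 and 8 in the same 4 settings, and 12 to 27 with each library left out. The cause of these shifts was not tested. The median log2 fold change of the members, 0.77, was 1.25 with limma-trend on log2(RPKM + 1), with or without a filter, 1.35 with a pseudocount of 0.1, 1.15 with RPKM divided by TMM, and 0.53 to 1.16 with each library left out. The number of members with a median RPKM above 10 was 6, and 5 to 6 with each library left out.

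The replicate numbers do not pair the animals. With the replicate block the members' median was 1.13, and 2 members were called, KLF15 at 1.46 and KLF11 at 1.58 with FDRs of 0.0276 and 0.00917, while KLF9 at 1.48 had an FDR of 0.0604. KLF13 has no value with at least 10 counts in every library.

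Each breed had 3 animals, and the members held between 8 and 3441 reads per library. The breeds were not split by any batch in the labels.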
